A study of Mus musculus with 16 samples.

Results

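The smooth muscle contractile genes followed here are Acta2, Myh11, Tagln, Cnn1, Mylk, Myl9, Lmod1, Smtn, Des and Synpo2, chosen by symbol: 10 of the 31055 features in the count tables, each found in exactly 1 feature row. They were measured by droplet single-cell RNA sequencing of the mouse thoracic aorta, from the root to the branch point of the left subclavian artery, after enzymatic dissociation and sorting of living nucleated cells. All mice were male, on the 129S6/SvEv strain, carried Myh11-CreER (a tamoxifen-inducible Cre driven by the Myh11 promoter, the transgene lying on the Y chromosome) and were given tamoxifen at 6 weeks of age on 5 consecutive days. Smad3+/+ mice carried the Cre with intact Smad3, and Smad3SmKO mice carried Smad3 lox/lox, in which Cre deletes the Smad3 gene in vascular smooth muscle cells (VSMCs). Each of the 16 libraries was 1 mouse: 2 Smad3+/+ and 2 Smad3SmKO at 10 weeks after deletion, and 5 Smad3+/+ and 7 Smad3SmKO at 18 weeks. Both Smad3+/+ mice at 10 weeks, Smad3+/+ replicates 4 and 5 and Smad3SmKO replicates 5, 6 and 7 at 18 weeks also carried the labelled Myh11-GFP (EGFP-L10a) tracer. The comparisons ask which transcripts of the contractile apparatus depend on Smad3 in VSMCs, and whether that changes between 10 and 18 weeks.

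A smooth muscle cell shortens when filaments of smooth muscle myosin slide along actin filaments that are anchored in dense bodies and adhesion plaques. Calcium and calmodulin activate myosin light chain kinase, the kinase phosphorylates the regulatory light chain, and the phosphorylated myosin binds actin. Most genes of this apparatus are switched on together by serum response factor and its partner myocardin, which bind a short promoter element called the CArG box, and TGF-beta signalling through SMAD3 is a known inducer of the same program.

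Cells were assigned by transcript counts. Of 66349 deposited cells, 50858 passed the limits of the study on genes, UMIs (unique molecular identifiers, each standing for 1 captured transcript) and mitochondrial reads. A cell with at least 5 UMIs of Myh11 and more Myh11 than Dcn was taken as a VSMC, which gave 8909 cells, from 21 to 1706 per library. The reverse rule on Dcn, a fibroblast proteoglycan, gave 36011 fibroblasts. UMIs of 2 or more of Vtn, Higd1b and Kcnj8 marked 164 pericytes, the contractile cells of small vessels, which were left out of the other classes; 41 of them would also have met the VSMC rule and 55 the fibroblast rule. A class of 1377 leukocytes, which should lack the contractile genes, served as the measure of free RNA. UMIs were summed per library and class and expressed as CPM, the UMIs of a gene per 1000000 UMIs of that sum. VSMC sums held between 273061 and 18859700 UMIs, so the small 30 min libraries were the least precise, down to Smad3SmKO replicate 4 at 18 weeks with 21 VSMCs. Because the protocol reads the 3′ end of each transcript, these levels are not divided by gene length. Myh11 set the VSMC and fibroblast rules, so its own levels in these classes are descriptions only, and its test came from a second rule on Tpm2 (a tropomyosin and no member of the set), which selected 9281 cells.

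Libraries differed in ways other than genotype. The 4 libraries of 10 weeks formed batch 4, digested for 60 min, and since only the Smad3+/+ mice among them carried the tracer, tracer and genotype cannot be told apart at 10 weeks. At 18 weeks, 7 libraries without tracer were digested for 30 min in batches 1 to 3, and 5 libraries with tracer for 60 min in batches 5 and 6, so digestion, tracer and batch cannot be told apart. Batch 5 held Smad3SmKO mice only. With batch in the fit, its mice (replicates 5 and 7) therefore did not bear on the genotype estimates at 18 weeks. Of the kept cells, 4869 (9.57%) carried a barcode that also occurred among the deposited cells of another library, among them 1358 VSMCs; the share was 61.4% in Smad3+/+ replicate 4, 45.8% in Smad3SmKO replicate 7, 32.5% in Smad3+/+ replicate 5 and 21.7% in Smad3SmKO replicate 5 at 18 weeks, and at most 2.32% in each other library. Each fit was repeated without these cells, except that of genotype in pericytes, for which this was not possible. The summed level of 10 heart muscle markers in VSMC sums ran from 104 to 553 CPM, most of it Tnnt2, while Myh6, a defining myosin of heart muscle, averaged 1.14. VSMC markers outside the rule (Tpm2, Csrp1, Ppp1r14a and 5 others) summed to between 7708 and 13894 CPM in every VSMC sum.

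The targeted gene was sparse. In VSMC sums at 10 weeks Smad3 stood at 5.40 and 4.70 CPM in the Smad3+/+ libraries and at 8.08 and 5.19 in the pair labelled Smad3SmKO. Later, at 18 weeks, the 5 Smad3+/+ libraries read 2.86, 9.69, 10.5, 7.23 and 8.01, and the 7 libraries labelled Smad3SmKO ran from 4.11 to 17.3 with a median of 7.90. The groups overlapped at both times, with Smad3 log2 differences (Smad3SmKO minus Smad3+/+) of 0.45 (SE 0.37) and 0.03 (SE 0.37). Counts of 3′ ends do not show whether the floxed segment is present, so they check neither the deletion nor the labels.

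The promoters bear on these genes because the CArG box is their shared control element. RefSeq promoters (build GRCm38.p6, 250 bases before to 50 after the annotated start) held 8 of the members, all but Myh11 and Tagln. For Acta2, Myl9 and Lmod1 the RefSeq start differs from that of the gene span given below (GENCODE M21). The windows of Acta2 lie inside its span, and those of Myl9 and Lmod1 lie before theirs. Distances are from the RefSeq start. The box is a pair of C bases, a run of A or T bases and a pair of G bases, and it reads as a CArG box on both strands. Myl9 was the only member with an exact box in this window, against 1.63% of 32851 promoters. With at most 1 mismatch, Acta2, Myl9 and Lmod1 held a box and the other 5 did not, against 21.1% of all promoters. The windows are shown because this element is the known binding site of serum response factor, and they are written 5′ to 3′ on the strand of the gene with the box in capitals; they are matches of letters and nothing in these counts measured binding.
Acta2, box starting 84 bases before the start, chr19:34255438-34255467, minus strand: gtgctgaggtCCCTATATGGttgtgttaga
Acta2, box starting 34 bases before the start, chr19:34255388-34255417, minus strand: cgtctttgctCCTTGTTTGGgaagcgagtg
Myl9, exact box starting 161 bases before the start, chr2:156775293-156775322, plus strand: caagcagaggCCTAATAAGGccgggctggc
Myl9, box starting 99 bases before the start, chr2:156775355-156775384, plus strand: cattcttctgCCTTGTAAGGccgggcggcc
Lmod1, box starting 189 bases before the start, chr1:135324614-135324643, plus strand: gcccccttgtCTTTAAAAGGctaaactgct
Lmod1, box starting 164 bases before the start, chr1:135324639-135324668, plus strand: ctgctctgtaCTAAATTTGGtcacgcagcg

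Together the 10 transcripts made up 6.42% ± 1.14 (SD, n = 16 libraries) of all UMIs of the VSMCs, from 4.48% to 8.65%. The share was 5.72% ± 0.660 (n = 2) in Smad3+/+ and 5.86% ± 0.118 (n = 2) in Smad3SmKO mice at 10 weeks, and 6.77% ± 0.994 (n = 5) and 6.53% ± 1.45 (n = 7) at 18 weeks. Genotypes thus overlapped at both times.

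Among the thin filament genes, Acta2 encodes smooth muscle alpha-actin, the main actin of the cell, and lies at chr19:34241090-34255590 (GRCm38, all gene positions below likewise). Its level over the 16 VSMC sums ran from 16782 to 35784 CPM with a median of 25374. Tagln (chr9:45929619-45936058) encodes transgelin or SM22, an actin-binding protein, and ran from 12694 to 31049 with a median of 22364. The Acta2 and Tagln ranges overlapped almost fully between libraries. Within a library Acta2 was higher than Tagln, with 2 exceptions. These were Smad3SmKO replicate 1 at 10 weeks (21004 against 21744 CPM) and Smad3+/+ replicate 5 at 18 weeks (27766 against 28845). Cnn1 (chr9:22099216-22109630), or calponin, which binds actin and slows the myosin ATPase, lay more than 10 times lower, between 1074 and 2746 with a median of 1886. Lmod1 (chr1:135324807-135368065), a leiomodin that nucleates actin filaments, ranged from 788 to 1123 CPM with a median of 906, touching the lowest Cnn1 value. Smtn (chr11:3517523-3540612), smoothelin, a marker of contractile smooth muscle, ranged from 378 to 708 with a median of 487.

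Among the myosin genes, Myl9 (chr2:156775420-156781658) encodes the regulatory light chain that is phosphorylated at contraction. Its level ran from 6814 to 11683 CPM with a median of 8592, below every Tagln and Acta2 value and above every value of the other members. Myh11 (chr16:14194535-14291372), the smooth muscle myosin heavy chain, ran from 1972 to 3911 in the cells it selected. Mylk (chr16:34745210-35002420), the light chain kinase, ran from 563 to 1144 CPM with a median of 734 and overlapped with Lmod1.

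Of the members tied to the cytoskeletal scaffold, Des (chr1:75360329-75368579) encodes desmin, the muscle intermediate filament. It ran from 205 to 699 CPM with a median of 296. Synpo2 (chr3:123076519-123236149), synaptopodin 2 or myopodin, binds actin and alpha-actinin at dense bodies, and ran from 178 to 547 with a median of 378. Smtn, Des and Synpo2 overlapped with each other in range and were the 3 lowest members. Des had the largest spread relative to its mean, 390 ± 166, and Lmod1 the smallest, 937 ± 107 (both SD, n = 16).

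**Figure D1:**
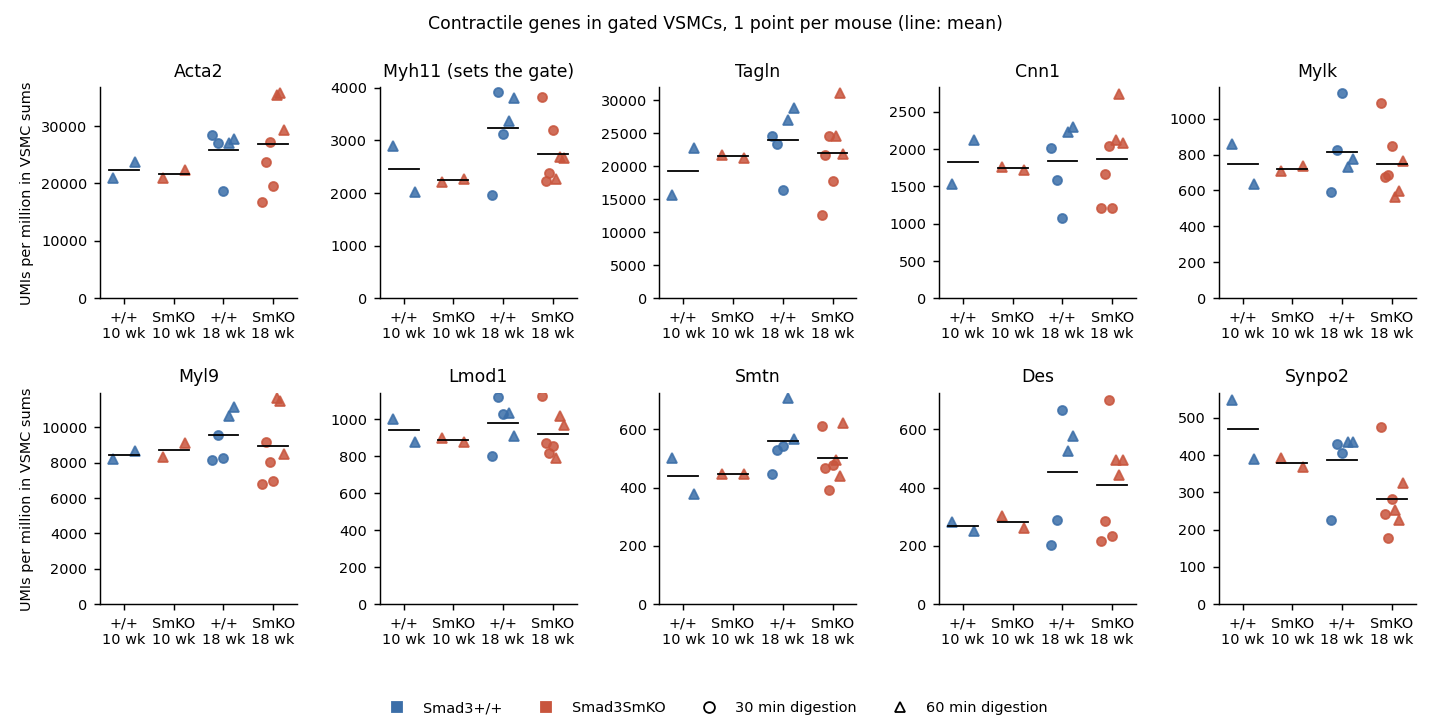
Levels of the 10 contractile genes in the VSMC sums of the 16 libraries, 1 panel a gene, in CPM (vertical axis) by group (horizontal axis). Each point is a library, circles for 30 min and triangles for 60 min digestion, and the line is the group mean. Groups overlap in every panel, and Synpo2 at 18 weeks shows the Smad3SmKO mean (283) below the Smad3+/+ mean (386).

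The members also differed in how evenly single VSMCs held them. When each cell was thinned to 2000 UMIs, Acta2 was present in 100% of VSMCs, Myl9 in 99.9% and Cnn1 in 93.4%. Lmod1 was present in 81.8%, Mylk in 73.2%, Smtn in 61.2% and Synpo2 in 51.0% of thinned VSMCs. Des was present in only 23.0% of them (15.3% to 32.6% over the libraries), or 33.2% without thinning. The share of leukocytes with a UMI of Des was 0.654% thinned and 1.38% unthinned, and for Synpo2 0.581% and 0.799%, so both lay above the free RNA measured there. Median depths were 5814 to 22018 UMIs per VSMC and 4394 to 11548 per leukocyte over the libraries.

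Des counts were therefore concentrated in few cells. The 10% of thinned VSMCs with the most Des UMIs held 72.8% of all Des UMIs, and this share lay between 62.9% and 83.4% in the 14 libraries with at least 50 VSMCs. For Synpo2 the corresponding share was 37.8%, for Smtn 34.0%, for Mylk 29.7% and for Lmod1 26.2%. For Cnn1, Myh11, Acta2, Tagln and Myl9 it fell between 18.0% and 24.8%. The Des share exceeded that of each other member in every one of these 14 libraries. A gene with few UMIs per cell gives a higher share by counting alone, but Synpo2, with 0.821 UMIs per thinned cell, and Des, with 0.633, were close in this respect.

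At 10 weeks no member differed between genotypes past the threshold. Synpo2 stood at 547 and 390 CPM in the Smad3+/+ libraries and at 391 and 367 in the Smad3SmKO libraries. Acta2 read 20965 and 23678 against 21004 and 22347, and Tagln 15732 and 22792 against 21744 and 21314. The genotypes overlapped for each of these genes. In edgeR's quasi-likelihood fit over all genes, with batch as a term, none of the 9 members tested was called (adjusted p of 1 for each), as was 0% of the 11790 genes tested; none of the 9 and 215 of all genes had an unadjusted p under 0.05, and DESeq2 also called none of the members. The members' median log2 difference (Smad3SmKO minus Smad3+/+) was -0.02 beside -0.01 over all genes, with 4 members higher and 5 lower. The estimates ran from -0.27 (SE 0.23) for Synpo2 to 0.15 (SE 0.28) for Tagln. With 2 mice a group, Tagln and Cnn1 turned sign with the Smad3+/+ mouse left out: without replicate 1 their log2 differences were -0.19 and -0.39, and without replicate 2 they were 0.60 and 0.32. Other signals moved with genotype at 10 weeks: 10 of 10 dissociation stress genes were lower in Smad3SmKO VSMCs (summed level 2674 and 4498 CPM against 1742 and 2050). So were 8 of 8 fibroblast markers (3244 and 3616 against 2248 and 2591). The summed leukocyte markers stood higher, at 74.0 and 118 CPM against 204 and 252. Of the 6 leukocyte markers tested, 4 were higher and 2 lower. None of the genes on these lists was called, and their part in the members' values was not tested.

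At 18 weeks the members again did not differ past the threshold, and Synpo2 showed the largest estimate. Synpo2 stood at 225, 430, 406, 435 and 434 CPM in the 5 Smad3+/+ libraries, and between 178 and 474 with a median of 253 in the 7 Smad3SmKO libraries. Of the Smad3SmKO libraries 6 lay below the 4 higher Smad3+/+ libraries, replicate 1 (474) lay above all Smad3+/+ libraries, and Smad3+/+ replicate 1 (225) lay among the Smad3SmKO values. The Synpo2 log2 difference was -0.40 (SE 0.16, 95% interval -0.74 to -0.07), or -24.3%, with an unadjusted edgeR p of 0.0213 and an adjusted p of 1. Within batches 1, 2, 3 and 6 the Synpo2 difference was -0.12, 0.22, -0.61 and -0.94. It was negative in each of the 28 alternative fits, from -0.80 with the 60 min libraries only to -0.19 with the 30 min libraries only. None of these fits called Synpo2. The 60 min value rests on Smad3SmKO replicate 6, the only 60 min Smad3SmKO mouse that shared a batch with Smad3+/+ mice. Without Smad3SmKO replicate 6 the Synpo2 difference was -0.21.

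The other members were closer to 0 at 18 weeks. Acta2 read 28384, 27034, 18626, 27043 and 27766 CPM in Smad3+/+ VSMCs and from 16782 to 35784 (median 27154) in Smad3SmKO VSMCs, a log2 difference of -0.08 (SE 0.18, interval -0.46 to 0.29). The plain Acta2 means ran the other way, 25771 ± 4033 (SD, n = 5) and 26805 ± 7349 (n = 7), and the within-batch differences were -0.16, -0.15, -0.47 and 0.39 in batches 1, 2, 3 and 6. The plain Smad3SmKO means include the mice of batch 5, which the fit with batch does not use for genotype. Tagln had group means of 24049 ± 4755 and 22056 ± 5763 (log2 difference -0.16, SE 0.18), and Myl9 of 9568 ± 1359 and 8962 ± 1980 (-0.13, SE 0.17). Groups overlapped for each of these transcripts. Smtn gave -0.19 (SE 0.14), Mylk -0.07 (SE 0.13), Lmod1 -0.03 (SE 0.13) and Cnn1 -0.01 (SE 0.16) on the same log2 scale. Des gave -0.19 with the widest interval of the set, -1.10 to 0.72; its within-batch values ran from -1.61 in batch 2 to 1.13 in batch 1, and leaving out Smad3SmKO replicate 1 or Smad3+/+ replicate 3 turned its estimate to 0.24, as leaving out cells with heart muscle transcripts turned it to 0.14.

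None of the 9 members was called at 18 weeks, where edgeR called 0.0254% of the 11790 genes tested, and DESeq2 called none of the members either; 1 member (Synpo2) and 556 of all genes had an unadjusted p under 0.05. All 9 estimates lay below 0, with a median of -0.13 beside -0.01 over all genes. That common direction depended on the libraries and cells used: 5 of 9 members were lower (median -0.06) without the cells whose barcodes recur between libraries, 4 of 9 (median 0.21) in the 60 min libraries, 8 of 9 (median -0.16) in the 30 min libraries, and 7 of 9 with no batch term or without cells that held heart muscle transcripts. Synpo2 and Smtn kept a negative estimate in all of these fits. Of the 60 min Smad3SmKO mice, only replicate 6 shared a batch with Smad3+/+ mice, so the 60 min fit rests on that mouse. Dissociation stress genes overlapped between genotypes at 18 weeks (3402 to 9668 against 2120 to 9496 CPM), and 6 of 6 leukocyte markers tested were higher in Smad3SmKO VSMCs (23.0 to 200 against 7.7 to 577 CPM summed, none called); their part in the members' values was not tested.

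Myh11, which could not be tested in the cells it selects, was tested in cells chosen by Tpm2. There it stood between 1695 and 3771 CPM (median 3266) in the 5 Smad3+/+ and between 1841 and 3823 (median 2536) in the 7 Smad3SmKO libraries at 18 weeks, and at 2322 ± 688 against 2116 ± 3.38 (SD, n = 2 each) at 10 weeks. The groups overlapped at both times. Its log2 difference was -0.09 (SE 0.23) at 10 weeks and -0.09 (SE 0.16) at 18 weeks, with adjusted edgeR p of 1.00 at both times. In this class 0 of the 10 members was called at either time, where edgeR called 0% and 0.0328% of 12208 genes, and 1 member, Synpo2 at 18 weeks (-0.40, SE 0.17), had an unadjusted p under 0.05. In its own class Myh11 gave -0.09 and -0.08.

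**Figure D2:**
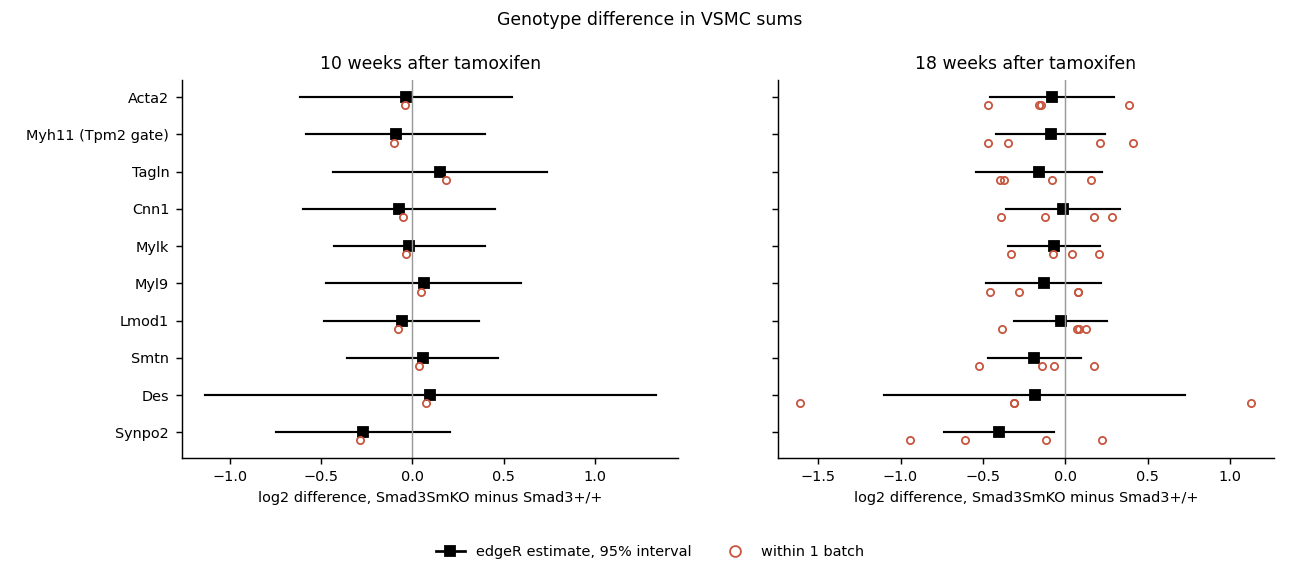
Genotype difference (log2, Smad3SmKO minus Smad3+/+, horizontal axis) of each contractile gene in VSMCs at 10 and 18 weeks from edgeR. Filled points with bars are the estimates with their 95% intervals, open circles are the within-batch differences, and Myh11 comes from the Tpm2-selected cells. Only the Synpo2 interval at 18 weeks (-0.74 to -0.07) leaves out 0, at an adjusted p of 1.

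The effect of genotype was not shown to differ between the times. The difference of the 2 effects (18 minus 10 weeks) was called for 0 of 9 members, where edgeR called 0.00848% of genes, and no member had an unadjusted p under 0.05; DESeq2 called none. The estimates ran from -0.31 (SE 0.33) for Tagln to 0.06 (SE 0.30) for Cnn1, with -0.13 (SE 0.28) for Synpo2. The intervals were wide, -0.71 to 0.45 for Synpo2 and -1.82 to 1.25 for Des.

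The same was found for other genes of the apparatus. Of 10 thin filament relatives, 12 genes of myosin and its regulation, 15 genes of dense bodies and adhesion plaques and 4 transcription factors of the contractile program, none was called by genotype in VSMCs at 10 or 18 weeks, with 0 and 1 (a thin filament relative at 18 weeks) under an unadjusted p of 0.05; DESeq2 called 1 and 8 genes at the same times over the whole table. Their median log2 differences at 18 weeks were -0.04, -0.03, 0.00 and 0.19. Tpm2 gave -0.11 (SE 0.22), Cald1, a caldesmon that binds actin and tropomyosin, -0.19, the actin crosslinker Flna 0.09, and Vcl, the vinculin of adhesion plaques, 0.00. Myocd, which encodes myocardin, gave 0.38 (SE 0.18).

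Digestion time, which cannot be told apart from tracer and batch, gave larger estimates than genotype for most members. Its fit had no batch term, unlike the genotype fit, so its estimates also carry the differences between batches. Digestion time was the same for all libraries of a batch. The SE and p of this fit treat those libraries as independent, so both can be too small. At 18 weeks Cnn1 averaged 1545 ± 394 CPM (SD, n = 7) in the 30 min libraries and 2296 ± 264 (n = 5) in the 60 min libraries. The Cnn1 values of the 60 min libraries lay above every 30 min value. Acta2 averaged 23029.9 ± 4707 and 31056 ± 4226, and Myl9 8152 ± 1027 and 10702 ± 1292, with overlap. With genotype in the fit, the log2 differences (60 minus 30 min) were 0.69 (SE 0.19) for Cnn1, 0.55 (SE 0.19) for Acta2, 0.53 (SE 0.20) for Tagln and 0.53 (SE 0.16) for Myl9. Their adjusted edgeR p were 0.0536, 0.129, 0.157 and 0.0720. Des gave 0.57 (SE 0.32), Smtn 0.33 (SE 0.14), Synpo2 0.20, Lmod1 0.14 and Mylk -0.14.

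By that threshold 0 of 9 members were called, beside 3.34% of 10347 genes; 5 members and 1828 of all genes had an unadjusted p under 0.05. The members' median was 0.53 with 8 higher, beside 0.00 over all genes. Markers of other cells and of dissociation moved with digestion too: 8 of 10 dissociation stress genes were lower with 60 min (median -0.52, none called; 2120 to 9668 CPM summed at 30 min and 3399 to 6923 at 60 min), 7 of 8 fibroblast markers were higher (Col1a1 called; 1595 to 2296 against 1873 to 4337 CPM), 3 of 3 leukocyte markers tested were higher (median 1.63, none called), and Cox4i2, a pericyte marker, was lower (called, -0.73). Their part in the members' values was not tested. Cnn1 was called (log2 0.80) without Smad3+/+ replicate 1, Cnn1 and Des (0.80 and 0.90) without Smad3SmKO replicate 3, and Myl9 (0.60) without Smad3SmKO replicate 7. Without the cells that share a barcode between libraries the median was 0.34 and Des gave -0.16. Of the 15 dense body genes 3 were called, 2 higher and 1 lower; Fhl1 (0.82) and the small heat shock protein gene Hspb6 (1.06) rose with 60 min, and none of the other 3 lists had a called gene.

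Between VSMCs split by position genes within the same library, 3 of 9 members were called, beside 22.1% of all genes. The position of the cells was not itself measured. VSMCs with more UMIs of Notch3 and Enpep than of Ptprz1 and Tes, genes the study places along the vessel, were taken as proximal (896 cells) and the reverse as distal (5965 cells), and 14 libraries had at least 10 cells of each. Cnn1 was lower in proximal VSMCs in every one of the 14 libraries, at 1666 ± 348 against 2122 ± 376 CPM (SD, n = 14), a log2 difference (proximal minus distal) of -0.32 (SE 0.05) and an adjusted edgeR p of 7.01e-06. Tagln was higher in proximal VSMCs in 12 of 14 libraries, at 25043 ± 3604 against 22719 ± 4820 (0.18, SE 0.04, adjusted p 0.00113). Mylk was higher in 10 of 14, at 799 ± 172 against 722 ± 123 (0.16, SE 0.04, adjusted p 0.00724). These 3 of 9 members were the ones called, beside 22.1% of 8862 genes, a share not far from that of all genes. The Mylk call was lost with at least 2 UMIs of the position genes (adjusted p 0.0591), without shared barcodes (0.0556) and with no filter on low counts (0.0602), while Cnn1 and Tagln were called in all 18 alternatives.

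Des was lower in proximal VSMCs of 12 of the 14 libraries. Its proximal and distal levels were 32.1 and 308 CPM in Smad3+/+ replicate 1 at 10 weeks, and 190 and 547 in Smad3+/+ replicate 4 at 18 weeks. The reverse held in Smad3SmKO replicates 1 (489 and 84.7) and 3 (992 and 349) at 18 weeks, which had 16 proximal cells each. The Des log2 difference was -0.77 (SE 0.29, adjusted p 0.0853 in edgeR), and it was called when either of these libraries was left out (-0.89 and -0.93). Acta2 (-0.02), Myl9 (-0.02), Lmod1 (-0.06), Smtn (0.04) and Synpo2 (-0.12) were not called, and Myh11 gave 0.02 as a description. The members' median was -0.02 beside -0.01 over all genes. Dissociation stress genes were higher in proximal VSMCs (8 of 10 called, median log2 difference 1.27; 4019 to 15040 CPM summed against 1243 to 7407 in distal VSMCs), and their part in these values was not tested.

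**Figure D3:**
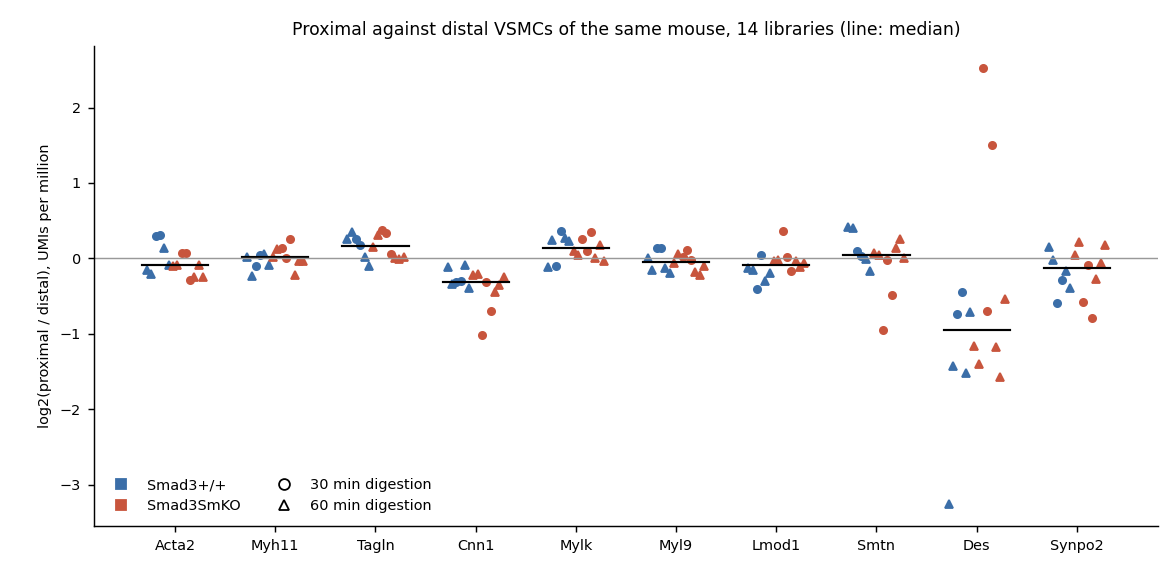
Log2 ratio of proximal to distal VSMCs (vertical axis) of each contractile gene (horizontal axis) in 14 libraries. Each point is a library and the line is the median. Cnn1 lies below 0 in all 14 libraries, Tagln above 0 in 12, and Des spreads most, with 2 libraries above 0.

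The relatives split in direction as the members did. Proximal VSMCs had higher Tpm1 (0.30), Tpm2 (0.32), Cald1 (0.30) and Tpm3 (0.30), the tropomyosins and caldesmon that lie along the actin filament, and lower Actn1 (-0.29) and the calponin gene Cnn3 (-0.77), all called, among 10 thin filament relatives. Of 12 myosin regulators 3 were higher (Pln, the inhibitor of the calcium pump, at 3.48, Prkg1 at 0.49 and Myh9 at 0.23) and 3 lower. Of 15 dense body and adhesion genes 4 were higher and 7 lower, and none of the 4 transcription factors was called. Whether the genotype effect differed between positions at 18 weeks was tested on 10 libraries: 0 of 9 members were called beside 0.0115% of genes, and 1 member, Acta2, had an unadjusted p under 0.05 (p 0.0136, log2 -0.30, SE 0.11).

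Pericytes held much less of nearly every contractile transcript than the VSMCs of the same mouse. Only 6 libraries, all of 18 weeks, had at least 10 pericytes, and in them the members summed to 2.62% ± 0.620 of UMIs (SD, n = 6, 1.44% to 3.06%). Of these pericytes, 10 of 12, 5 of 21 and 2 of 14 in Smad3+/+ replicates 1, 2 and 4 also met the fibroblast rule. In Smad3SmKO replicates 5, 6 and 7 it was met by 7 of 12, 11 of 34 and 4 of 20. Acta2 read 9823, 12140 and 4588 CPM in pericytes of Smad3+/+ replicates 1, 2 and 4, and 10931, 13079 and 11448 in those of Smad3SmKO replicates 5, 6 and 7, against a mean of 30488 ± 4049 in their VSMCs. No pericyte value reached a VSMC value. The Acta2 log2 difference (pericyte minus VSMC) was -1.78 (SE 0.15, adjusted edgeR p 6.41e-06), Tagln gave -1.58 (SE 0.12), Myl9 -1.72 (SE 0.17) and Lmod1 -1.76 (SE 0.29). Cnn1 fell furthest, by 2.47 on the log2 scale (SE 0.36; adjusted p 0.00214), from 2132 ± 373 to 479 ± 274. Smtn gave -2.21 (SE 0.18) and Synpo2 -1.82 (SE 0.22). Mylk fell by less, -0.88 (SE 0.19, adjusted p 0.00270), and was higher in the pericytes of 1 of the 6 libraries.

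Des was the exception. It stood at 626, 303 and 249 CPM in the pericytes of the Smad3+/+ libraries and at 476, 182 and 781 in those of the Smad3SmKO libraries, a mean of 436 ± 234 against 409 ± 130 in the VSMCs. Pericytes had the higher Des level in 3 of the 6 libraries, and the log2 difference was -0.17 (SE 0.36, 95% interval -1.02 to 0.68, adjusted edgeR p 0.795), moving to -0.61 with pericytes of less than 5 UMIs of Dcn and to 0.40 without shared barcodes. Each of these alternatives had only 4 libraries with enough pericytes, so the libraries changed along with the cells. After thinning, 35.4% of pericytes and 23.0% of VSMCs held a Des UMI. In all, 8 of 9 members were called lower and none higher, beside 27.4% of 8616 genes called in either direction, with a median of -1.76 beside 0.00 over all genes. The Cnn1 call was lost among pericytes with less than 5 UMIs of Dcn (adjusted edgeR p 0.0944), again with 4 libraries. Myh11, which neither class can test, gave -2.06 (2809 against 782 CPM).

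The dense body list followed the members and the other lists split. Of the 15 dense body and adhesion genes 14 were called lower in pericytes (median -1.48), with Itga8 (-3.04) and Hspb6 (-3.02) furthest. Among 10 thin filament relatives Tpm2 (-1.53), Actn1 (-1.91), Cald1 (-0.65) and Tpm1 were lower, while Tpm3 (1.39), Tpm4 (1.26) and Tagln2 (0.75), forms also used outside muscle, were higher. Of 12 myosin regulators 7 were lower and 2 higher, the nonmuscle myosin genes Myh9 (1.36) and Myl12b (1.03). Myocd fell by 2.52 on the log2 scale. Of the 8 pericyte markers Cspg4 was called lower in pericytes (-2.06). The other 7 were higher, 3 of which (Vtn, Higd1b and Kcnj8) had to be since they set the class. Beside these, 6 of 6 endothelial markers (8.5 to 1335 CPM summed in pericytes, 10.5 to 65.9 in VSMCs), 4 of 8 fibroblast markers (2863 to 9154 against 1595 to 4337 CPM; Dcn, which the VSMC rule keeps below Myh11, among the 4, and 1 other called lower) and 6 of 10 dissociation stress genes (10616 to 21809 against 1742 to 9668 CPM) were higher in pericytes, and their part in the members' values was not tested.

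**Figure D4:**
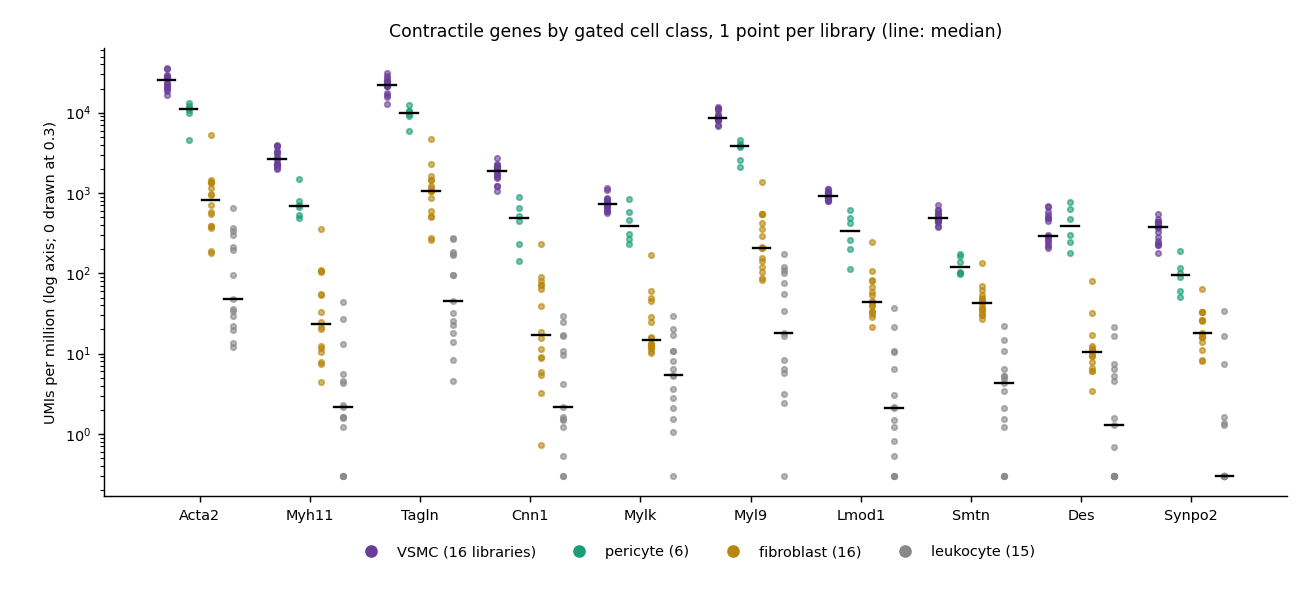
Levels of the 10 contractile genes in VSMC, pericyte, fibroblast and leukocyte sums, in CPM on a log axis, with 1 point a library, values of 0 drawn at 0.3, and a line at the median. The VSMC median is the highest for every member except Des, whose pericyte values (182 to 781) overlap with the VSMC values (205 to 699). Mylk was higher in the pericytes of 1 of 6 libraries. Leukocyte values lie below the fibroblast values of the same library in at least 14 of 15 libraries for each member.

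Genotype in pericytes could be read only from 3 Smad3+/+ and 3 Smad3SmKO libraries, all of the latter digested for 60 min, so with digestion in the fit the contrast rests on Smad3+/+ replicate 4. No member of the 10 was called, beside 0% of 5157 genes; 9 were higher in Smad3SmKO pericytes with a median log2 difference of 0.79 (0.04 over all genes), and 3 had an unadjusted edgeR p under 0.05. These were Acta2 at 1.35 (SE 0.39), Cnn1 at 2.04 (SE 0.74) and Lmod1 at 1.35 (SE 0.54). The plain means differed less or went the other way, at 8850 ± 3869 and 11819 ± 1121 for Acta2 and 405 ± 261 and 294 ± 112 for Lmod1 (SD, n = 3 each), since Smad3+/+ replicate 4 held the lowest pericyte level of 6 members, Acta2 (4588) among them. DESeq2 was not run for this comparison.

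Fibroblasts held low levels of every member. Over the 16 libraries Acta2 ran from 178 to 5291 CPM with a median of 829, Tagln from 257 to 4741 with a median of 1058, and Myl9 from 83.4 to 1357 with a median of 209. The other members had medians between 10.4 (Des) and 44.4 (Lmod1). As a percentage of the level in the VSMCs of the same library, the medians were 2.85% for Acta2, 4.51% for Tagln, 0.757% for Cnn1, 4.84% for Lmod1, 6.32% for Synpo2 and 8.82% for Smtn. Each member was higher in fibroblasts than in leukocytes in at least 14 of the 15 libraries with 10 or more leukocytes.

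The ratios to the VSMC level differed between members within a library. Within Smad3SmKO replicate 1 at 18 weeks, for instance, Cnn1 stood at 0.0601% and Smtn at 6.10% of the VSMC level, a spread of 102 times. The spread was 2.29 times in Smad3SmKO replicate 7 at 18 weeks, where the members stood at 11.1% to 25.4% of the VSMC level; this library had 192 fibroblasts, 61.2% VSMCs among its kept cells and the highest fibroblast level of every member. In the 5 libraries with over 29% VSMCs the median member stood at 4.55% to 18.8% of the VSMC level, and in the 7 libraries with under 6% VSMCs at 1.14% to 4.02%. Smtn had the highest ratio in 14 of the 16 libraries, and Myh11 (which sets the rule) or Cnn1 the lowest in all 16.

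**Figure D5:**
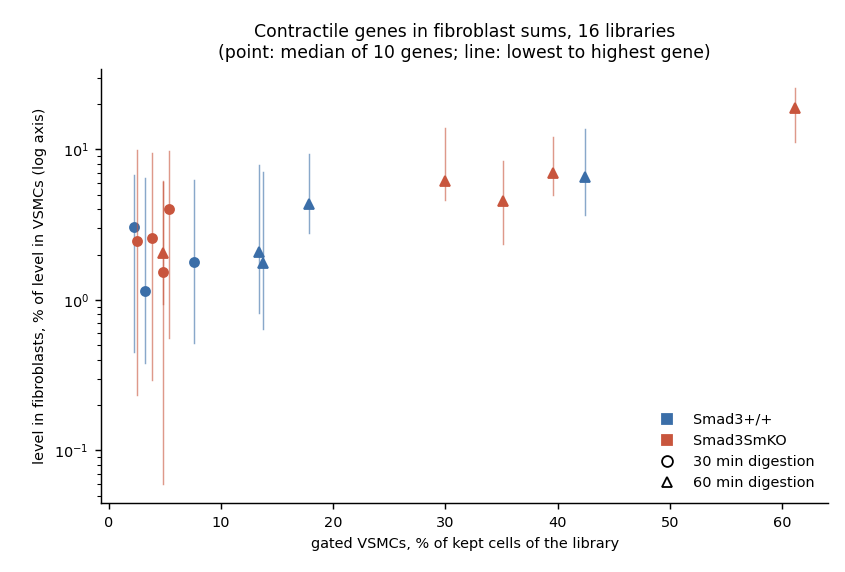
Median level of the 10 contractile genes in fibroblasts as a percentage of their level in VSMCs of the same library (vertical log axis) against the percentage of VSMCs among kept cells (horizontal axis), 1 point a library. The library with the most VSMCs, at 61.2%, lies highest, at 18.8%.

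No member was called by genotype in fibroblasts. At 10 weeks Acta2 read 1339 and 956 CPM in Smad3+/+ and 1438 and 1356 in Smad3SmKO fibroblasts, and Tagln 1049 and 1237 against 1649 and 1467. Neither gene overlapped between genotypes, nor did Cnn1, Des and Synpo2, while the other 5 members did. How often genes outside the set also lacked overlap was not counted. With so few mice a group, genotypes can separate by chance, so no genotype effect is read from the missing overlap. By the test 0 of 9 members stood past the threshold, beside 0% of 14615 genes, with all 9 higher and a median of 0.28 (-0.02 over all genes) that was 0.04 among fibroblasts without Myh11. At 18 weeks Acta2 read 547, 385, 189, 371 and 586 in Smad3+/+ fibroblasts and from 178 to 5291 (median 977) in Smad3SmKO fibroblasts, a log2 difference of 0.43 (SE 0.33). None of 9 members was called at 18 weeks, again beside 0% of genes. With batch in the fit, 6 were higher and 3 lower with a median of 0.13, and without a batch term the median was 1.29. The Smad3SmKO mice of batch 5 count towards genotype only in the fit without a batch term. No member had an unadjusted edgeR p under 0.05 at either time, and DESeq2 called no member.

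Across the 16 VSMC sums the members fell into sets that varied together, given here as a description since libraries share batches and digestion times. Acta2, Tagln and Cnn1 correlated at Pearson r of 0.86 to 0.88 (n = 16), and Myl9 with Acta2 and with Tagln at 0.78. Myh11 correlated with Lmod1 (0.74), Smtn (0.70) and Mylk (0.69). Mylk ran against the first set, with r of -0.78 with Acta2, -0.77 with Tagln and -0.82 with Cnn1.

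The genes outside the set whose level followed the mean log2 level of the 9 members other than Myh11 most closely, among 2701 genes with a mean of at least 50 CPM, were Eri3 (r 0.84), P3h4 (0.81), Chpf (0.73), Itgb1 (0.73) and Rtf2 (0.72), where the median gene had r of 0.01 (n = 16 libraries). Itgb1, the beta 1 integrin subunit that links the cytoskeleton to matrix, was the abundant gene of the 5, at 1547 ± 270 CPM (SD). The members themselves correlated with the mean of the other 8 at 0.69 for Myl9, 0.44 for Des and 0.39 for Acta2, and at -0.27 for Mylk and -0.11 for Synpo2.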

How the data were processed

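The deposited count matrices of 16 libraries hold raw UMI counts per gene and cell, made by the authors with Cell Ranger on mm10 (version 6 in the submitters' processing notes, 4.0.0 in the file headers) and passed on filtered for cells; the labels' notes also name Seurat 4. Cells with 600 to 6000 genes, 2000 to 50000 UMIs and under 25% mitochondrial UMIs were kept, the limits of the study. Total UMIs per library ran from 12539539 to 52843031. No doublet caller was run; alternatives left out VSMCs with 5 or more UMIs of Dcn and fibroblasts with any Myh11.

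UMIs were summed per library and class (at least 10 cells), normalised by TMM and tested over all genes with the quasi-likelihood test of edgeR 4.0.16 (R 4.3.3), filterByExpr and Benjamini-Hochberg adjustment at 0.05. The genotype fit had batch and a genotype effect at each time. Pericytes against VSMCs and proximal against distal VSMCs used library as a block, and the digestion fit had genotype as a term. SE is the log2 estimate divided by the root of F. Levels per library are CPM (UMIs per 1000000 UMIs of the class sum); SD is over libraries, and p-values treat each mouse as 1 replicate. The 95% intervals of log2 differences come from the fits over libraries. Correlations are Pearson's over log2 levels. Alternatives were DESeq2 1.42.0 (size factors, Wald test), no filter, no batch term, other class rules, digestion subsets and leaving out each library; leaving out shared barcodes was chosen after seeing the data.

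The 10 members and all gene lists were chosen with earlier results of these data known. Named genes were all members, genes of the lists past the threshold, Tpm2, Cald1, Flna, Vcl, Myocd, Smad3 and the 5 genes most like the members' mean. Gene positions are from GENCODE M21. Values of 1 gene of the dense body and adhesion list are not reported here.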

Additional observations from a re-analysis of the deposited data

Results flagged for a closer look

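Of 40 groups of 4 to 10 libraries examined, 12 held a library whose gap to the nearest other exceeded Dixon's 95% critical value; chance flags about 1 in 20 groups. In VSMC sums, Smad3+/+ replicate 3 at 18 weeks was far below its group for Acta2 (18626 CPM), and Smad3+/+ replicate 1 for Synpo2 (225). In fibroblast sums, Smad3+/+ replicate 5 was far above its group for Mylk (15.8). The other 9 concern the fibroblasts of Smad3SmKO replicate 7 at 18 weeks, which stood far above their group at 5291 CPM for Acta2, 353 for Myh11, 232.2 for Cnn1, 167 for Mylk, 1357 for Myl9, 247 for Lmod1, 133 for Smtn, 80.7 for Des and 63.8 for Synpo2. That library had 192 fibroblasts, 61.2% VSMCs among its kept cells and 45.8% of kept cells with a barcode seen in another library; the part of either in the values was not tested.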

How the results depend on the processing

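No alternative turned a called value of a member around. In VSMCs the median log2 genotype difference at 18 weeks was 0.21 in the 60 min libraries alone, where only 1 Smad3SmKO mouse shared a batch with Smad3+/+ mice. In fibroblasts the median was 1.29 with no batch term, a fit that also draws on the batch without Smad3+/+ mice. In pericytes 1 member (Cnn1) was called by genotype with no filter on low counts. For pericytes against VSMCs the median was -2.11 with pericytes of less than 5 UMIs of Dcn, -1.43 without shared barcodes and -1.85 to -1.55 with each library left out. The Dcn and barcode alternatives each had only 4 libraries with enough pericytes. For position the median was -0.075 with 2 UMIs of the position genes. For digestion 2 members were called with no filter, 0 to 2 with each library left out, and the median was 0.34 without shared barcodes. Over all genes the calls rose with no filter from 0 to 52 and from 3 to 126 (VSMC genotype at 10 and 18 weeks) and from 346 to 1051 (digestion), those for genotype in pericytes from 0 to 19 (15 with less than 5 UMIs of Dcn), and fell from 2360 to 1316 (pericytes against VSMCs) and from 346 to 130 (digestion) without shared barcodes; the cause was not tested. Without shared barcodes the median was also -0.08 (5 of 9 members lower) for 18 against 10 weeks, -0.07 (8 of 10 lower) for the Tpm2 class at 18 weeks, 0.06 (5 of 9 higher) in fibroblasts at 18 weeks and 0.0073 (5 of 9 higher) for position. DESeq2 called 1 and 8 genes in VSMCs at 10 and 18 weeks. No paired analysis was possible because replicate numbers follow the order of deposit and tie no mice together; mice were tied by batch only, which was a term of the genotype fits in VSMCs and fibroblasts. Genotype in pericytes could not be fitted without shared barcodes or without Smad3+/+ replicate 4. Depth limits the 30 min libraries most: 5 of the 7 had fewer than 100 VSMCs.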
